A study of Mus musculus with 12 samples.

Results

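The RbFox1 eCLIP peaks on human chromosomes 4, 13 and 18 were taken as every peak of the deposited human list that lies on one of the 3 chromosomes, on either strand. They were 1970 of 24831 peaks (7.93% of the list), with 945 on chromosome 4, 475 on chromosome 13 and 550 on chromosome 18. The other 20 chromosomes of the list held 22858 peaks and are the comparison throughout, while 3 peaks on an unplaced sequence entered neither side. All positions are in hg38 and count from 1.

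The cells were T-REx-293, a human embryonic kidney line engineered to make RbFox1 only when doxycycline is given. The line used, 77-5, is a single clone that also carries the mouse TrkB-BAC minigene, and both groups behind the list share this minigene without any deletion. One group had 2 immunoprecipitated libraries from cells kept 48 h with doxycycline (+Dox, 0.5 mg/ml in the labels but 0.5 μg/ml in the figure legends), and the other had 2 from cells that received none (No Dox). Peaks were called in the +Dox libraries, and each has 1 value for its log2 fold enrichment over No Dox and 1 for its −log10 p, both merged by the authors over the replicates. There are 0 columns for single libraries, so depth is unknown, no error between replicates can be given, and no test between conditions or between chromosomes was run. The intervals below are 95% intervals from binomial counting over peaks (order statistics for a median, Wilson for a share). They cover counting error only and treat neighbouring peaks as independent, which they are not.

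RbFox1 is an RNA-binding protein that recognizes (U)GCAUG in pre-mRNA and steers the inclusion or skipping of alternative exons, often from sites deep within introns. In eCLIP, ultraviolet light ties the protein to the RNA it touches, and a peak is a stretch where the recovered fragments pile up. A peak therefore needs a transcribed RNA, and chromosomes 4, 13 and 18 are known as the human autosomes with few genes for their length. The human genes, gene regions and sequences under the peaks were not analysed here, since the reference at hand covers the mouse only. The peaks are therefore described by position, without sequence.

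The 3 chromosomes carried fewer peaks per Mb than most of the genome. Chromosome 13 had 5.02 peaks per Mb between its first and last peak, chromosome 4 had 5.07 and chromosome 18 had 6.88, against 8.94 on the 20 other chromosomes together. The ratio to the others was 0.561 for chromosome 13, 0.567 for chromosome 4, 0.769 for chromosome 18 and 0.610 for the 3 together. Of 23 chromosomes ordered from the highest density, chromosome 18 ranked 17, chromosome 4 ranked 21 and chromosome 13 ranked 22. The X chromosome was sparser than all 3, at 4.56 peaks per Mb, and chromosome 22 was the densest, at 28.3. Chromosomes 5, 8 and 2 were also sparser than chromosome 18, though denser than chromosomes 4 and 13. A low density was thus shared with the X chromosome and, at the level of chromosome 18, with these autosomes. It was not particular to the 3.

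**Figure D1:**
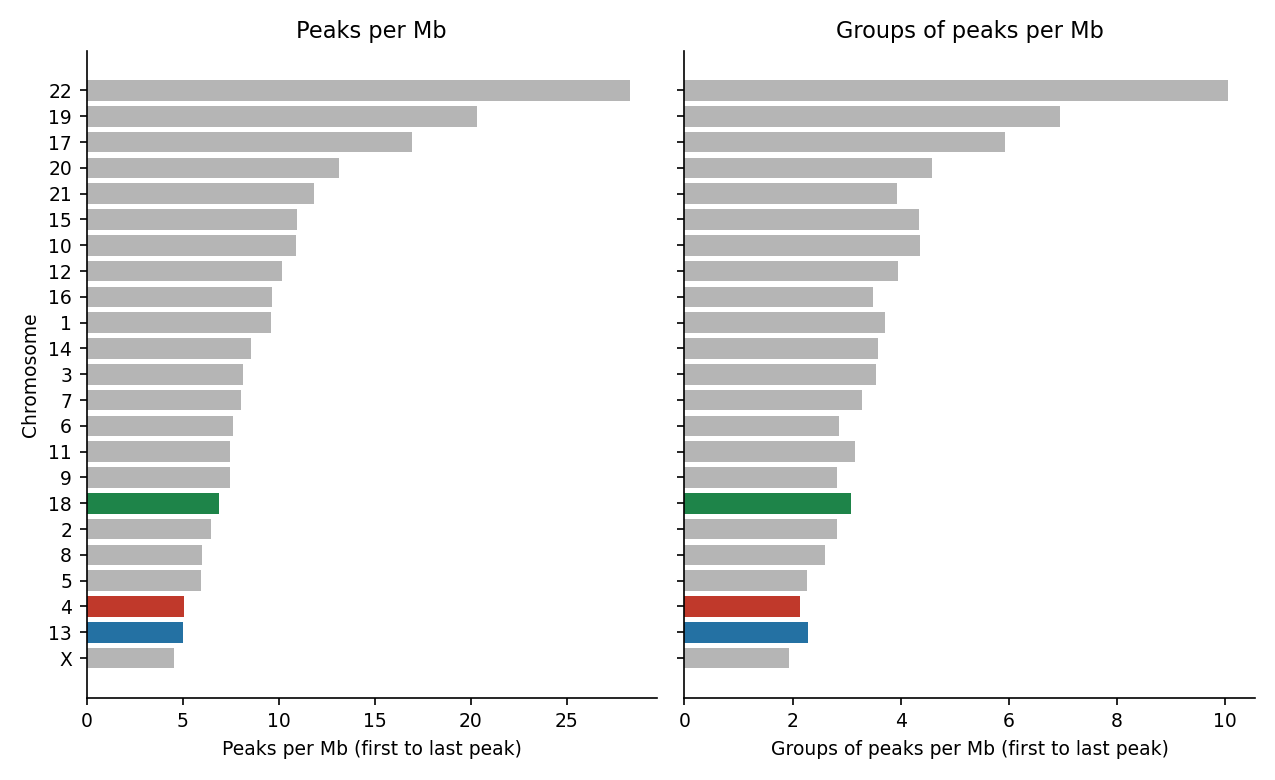
Bars give peaks per Mb (left) and groups of same-strand peaks at most 500 nt apart per Mb (right) for the 23 chromosomes, measured between the first and last peak of each, with chromosomes 4, 13 and 18 in colour and 1 value per bar. Chromosomes 4 and 13 sit next to the X chromosome at the low end, with 5.07 and 5.02 peaks per Mb, and chromosome 18 lies higher at 6.88.

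Both the number of places with peaks and the number of peaks at each place were lower. Same-strand peaks at most 500 nt apart were taken as 1 group, which left 399 groups on chromosome 4, 216 on chromosome 13 and 246 on chromosome 18. The groups came to 2.14, 2.28 and 3.08 per Mb in that order, against 3.49 per Mb on the other chromosomes. Among these, the X chromosome had 1.93 and chromosome 5 had 2.26, both below chromosome 13. A group held 2.37 peaks on average on chromosome 4, 2.20 on chromosome 13 and 2.24 on chromosome 18, against 2.56 elsewhere. Chromosomes 13 and 18 had the lowest 2 of the 23 averages, and chromosome 4 ranked 17.

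Peaks were also gathered in fewer parts of each chromosome than on the others together. Of the windows of 1 Mb within the span of chromosome 4, 49.7% held at least 1 peak (93 of 187), which was the lowest share among the 23 chromosomes. The share was 55.2% on chromosome 13 (53 of 96) and 60.5% on chromosome 18 (49 of 81), against 66.2% on the others. Among these, the X chromosome (51.0%) and chromosome 21 (54.8%) lay below chromosome 13. Chromosomes 9 (55.4%), 5 (57.5%) and 16 (59.3%) also lay below chromosome 18. On chromosome 4, 14 windows held 50% of the peaks, or 7.49% of its windows, again the lowest of the 23. Chromosome 13 needed 11.5% of its windows for 50% of the peaks and chromosome 18 needed 12.3%, close to the 12.6% of the others. Chromosomes 9 (9.35%), 21 (9.52%), X (10.1%) and 5 (10.5%) needed less than chromosome 13.

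The fullest window of chromosome 4 lay near its start, from 2 to 3 Mb, with 84 peaks in 24 groups (61 on the + strand and 23 on the − strand). The window from 1 to 2 Mb ranked 3 with 59 peaks, 42 of them on the + strand. Between them ranked the window from 20 to 21 Mb, which had 62 peaks in 15 groups, all 62 on the + strand and within 287 kb (chr4:20288409-20575759). The last stretch held 6 of the 8 peaks of chromosome 4 whose −log10 p was 400, the highest value of the list. Exactly this value was shared by 510 peaks, so it looks like a ceiling, and its distance from lower values has no measured size. The other two windows had peaks on both strands.

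Chromosome 13 had no window as full as these. Its first 3 were 51 to 52 Mb with 32 peaks (29 on the − strand), 113 to 114 Mb with 30 (15 on each strand) and 42 to 43 Mb with 29. In the last of these, all 29 peaks were on the + strand, within 153 kb (chr13:42159889-42313314), and 3 had a −log10 p of 400. On chromosome 18 the fullest window was 79 to 80 Mb, close to the last peak of the chromosome at 80185642, with 48 peaks (41 on the + strand). It was followed by 12 to 13 Mb with 37 (18 and 19 on the + and − strands) and 23 to 24 Mb with 33 (30 on the + strand). Each of the 3 fullest windows of a chromosome held between 6.0% and 8.89% of its peaks.

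The share of windows with peaks on 1 strand alone overlapped that of the other chromosomes within counting error. Among windows with at least 10 peaks, 25 of 63 on the 3 chromosomes had all their peaks on 1 strand (39.7%, interval 28.5 to 52.0%), against 309 of 856 on the others (36.1%, interval 32.9 to 39.4%). Of all members 60.9% were on the + strand, with 64.6% on chromosome 4, 56.6% on chromosome 13 and 58.2% on chromosome 18, against 52.5% on the others. Counted by groups, the + strand had 59.9% on chromosome 4, 55.1% on chromosome 13 and 58.5% on chromosome 18, against 52.1%. The excess on the + strand of chromosome 4 was thus larger in peaks than in groups. The share of + strand peaks there ranked 2 of 23, after chromosome 21 with 66.7%.

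Long stretches of the 3 chromosomes held no peak on either strand. On chromosome 4 the longest ran for 11.1 Mb, from the base after 56403889 to the base before 67530360, and the next covered 9.93 Mb after 129110707. Chromosome 13 had an empty stretch of 12.4 Mb between 79399726 and 91792802 and others of 7.28 and 7.16 Mb. On chromosome 18 the longest was 7.20 Mb, between 13756565 and 20960221. The empty stretches of the other chromosomes were not listed, so these lengths stand without a comparison, and whether they are unusual is not known. Density without the longest empty stretch of each chromosome was 5.39 per Mb on chromosome 4, 5.78 on chromosome 13 and 7.56 on chromosome 18. The others then had 9.69. This alternative was chosen after seeing the data. The first peak of chromosome 13 began only at 19695264, while those of chromosomes 4 and 18 began at 158207 and 225584, so the densities, counted between first and last peak, leave out the start of chromosome 13.

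Few peaks stood alone over such distances. On chromosome 4, 3 peaks had no other peak within 1 Mb on either strand, on chromosome 18 there were 2, and on chromosome 13 there were 0. They made up 0.254% of the members, near the 0.201% of the others (46 peaks). The most remote member, at chr18:2922999-2923119 on the − strand, was 2.17 Mb from its nearest neighbour and had a log2 fold enrichment of 4.54. The 3 lone peaks of chromosome 4 were weak in comparison, with log2 fold enrichments from 3.04 to 3.16 and −log10 p from 4.01 to 5.38.

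With the peaks as listed, neighbours on the same strand lay farther apart on chromosomes 13 and 18 than on any other chromosome. The median distance was 241 nt on chromosome 13 and 206.5 nt on chromosome 18, ranking 1 and 2 of 23, while the others ran from 47 nt on chromosome 21 to 182 nt on chromosome 8. Chromosome 4, at 144 nt, ranked 7 and lay inside the range of the others, whose pooled distances had a median of 104 nt. The share of neighbours at most 500 nt apart was 54.8% on chromosome 13 (interval 50.3 to 59.2%), 55.5% on chromosome 18 (51.3 to 59.6%) and 57.9% on chromosome 4 (54.7 to 61.0%), against 61.1% on the others (60.4 to 61.7%). The intervals of chromosomes 13 and 18 lay below that of the others, and the interval of chromosome 4 overlapped it. Chromosomes 2 (54.2 to 59.1%), 3 (54.1 to 59.0%) and 8 (53.7 to 60.3%) also had intervals below it, so this was not particular to chromosomes 13 and 18. The order of chromosomes 4 and 18 depended on how peaks were taken. With abutting peaks joined the median distance was 1271 nt on chromosome 4, 1510.5 nt on chromosome 13 and 809.5 nt on chromosome 18, against 673 nt on the others, so chromosome 4 was then the wider spaced of the pair. When only peaks were kept that reach 4 on the log2 fold scale with p no higher than 1e-05, it was 1649, 7230.5 and 389 nt in that order, against 215 nt.

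The difference was not spread evenly over all distances. Abutting peaks, with 0 nt between them, made up 25.7% of neighbours on chromosome 4, 21.8% on chromosome 13 and 19.7% on chromosome 18, against 24.6% elsewhere. Distances above 500 nt and up to 10 kb made up 12.4%, 12.1% and 14.6% in that order, against 10.6%. Distances over 1 Mb made up 8.91%, 8.25% and 7.66%, against 5.84%. This longest class was not particular to the 3. It made up 9.48% on the X chromosome, and 8.55%, 8.55% and 8.48% on chromosomes 8, 2 and 5. Between groups, the median distance was 72.5 kb on chromosome 4, 67.0 kb on chromosome 13 and 58.9 kb on chromosome 18, near the 65.7 kb of the others. The median step from one group to the next was thus of like size. Among all distances, those above 500 nt and up to 10 kb and those over 1 Mb both took larger shares than on the others. On chromosome 18 the shorter class exceeded that of the others by more than the longest class did. These shares are of all distances, so they also depend on how many lie within 500 nt. Shares among the steps between groups alone were not computed.

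**Figure D2:**
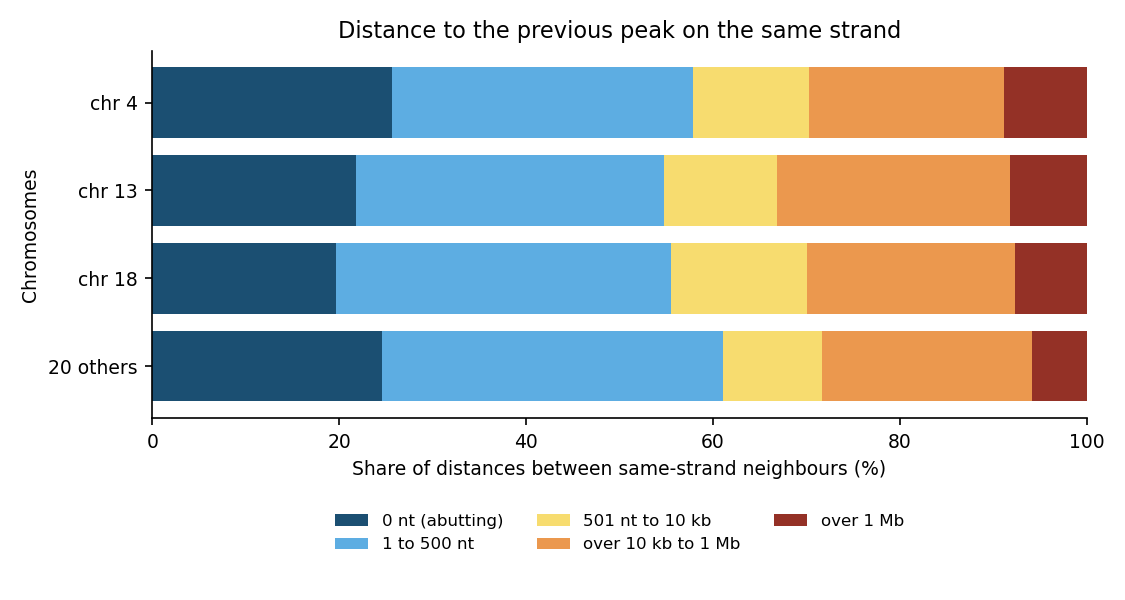
Stacked bars give the share of distances (%) from each peak to the previous peak on its strand, in 5 classes of length, for chromosomes 4, 13 and 18 and for the 20 others together. Distances over 1 Mb make up 8.91%, 8.25% and 7.66% on the 3 chromosomes and 5.84% on the others, and abutting peaks are fewest on chromosome 18, at 19.7%.

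Peaks were slightly wider on chromosomes 13 and 18. The median width was 87 nt on both (interval 83 to 91 nt on chromosome 13 and 84 to 90 nt on chromosome 18), the highest of the 23 chromosomes, and 81 nt on chromosome 4 and on the others. Chromosome 8 had 86 nt (82 to 89 nt) and chromosome 2 had 85 nt (83 to 87 nt), with intervals that overlapped those of chromosomes 13 and 18. The quartiles were 67 and 112 nt on chromosome 13, 68 and 111 nt on chromosome 18, 61 and 105 nt on chromosome 4, and 60 and 106 nt on the others. The narrowest member, on chromosome 13, was 5 nt wide and the widest, also there, 272 nt. Peaks of at least 100 nt made up 35.8% on chromosome 13, 34.7% on chromosome 18 and 29.3% on chromosome 4, against 31.0% on the others. When abutting peaks were joined first, the median was 98.5 nt on chromosome 18 and 102.5 nt on chromosome 13, against 98 nt on the others, so the difference of chromosome 18 nearly vanished.

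The enrichment of the 3 chromosomes over No Dox was close to that of the rest. The median log2 fold enrichment of all members was 3.67 (12.7-fold, interval on the log2 scale 3.63 to 3.71), and that of the others was 3.68 (12.8-fold). Chromosomes 4 and 13 both had 3.64. Chromosome 18 had 3.75 (13.4-fold, interval 3.66 to 3.82), the highest of the 23 chromosomes, next to 3.74 on chromosome 6. The 23 medians ran only from 3.60 on chromosome 22 to the value of chromosome 18, and the interval of chromosome 18 overlapped that of the others, 3.67 to 3.69. No peak of the list has a log2 fold enrichment under 3, so these medians describe what lies above that floor. Taken over the medians of groups, the order of the members and the others turned, at 3.60 against 3.57.

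A stricter threshold, which asks for a log2 fold enrichment of 4 or more and a p no higher than 1e-05, was passed by 29.0% of all peaks of the list. Among the members 545 passed, 27.7% (interval 25.7 to 29.7%), a share near this background. Chromosome 18 had 180 such peaks (32.7%, interval 28.9 to 36.8%), chromosome 4 had 247 (26.1%) and chromosome 13 had 118 (24.8%). Chromosomes 16 (33.7%) and 20 (33.4%) had higher shares than chromosome 18. For the fold alone the background was 31.4%. On chromosome 18, 36.0% of peaks reached it (interval 32.1 to 40.1%), the highest share of the 23, against 29.7% on chromosome 4 and 27.6% on chromosome 13. Chromosomes 20 (35.2%, interval 32.0 to 38.5%) and 16 (34.9%, 31.8 to 38.1%) came next, with intervals that overlapped that of chromosome 18. A log2 fold enrichment of at least 5 was reached by 70 members, 3.55% against a background of 4.33%.

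In contrast, −log10 p was lower. Its median was 7.80 on chromosome 18 (interval 7.23 to 8.63) and 8.18 on chromosome 13 (7.67 to 9.31), the lowest of the 23 chromosomes. Chromosome 2 came next, at 8.42 (7.87 to 8.98), and its interval overlapped both. Chromosome 4, at 9.59 (8.73 to 10.2), ranked 13, and the others together had 10.3 (10.2 to 10.5). Over the medians of groups, chromosome 4 no longer stood apart from chromosomes 13 and 18, at 6.86 against 7.08 and 6.82, with 7.62 on the others. A −log10 p of 400 was reached by 2.05% of the list, by 8 peaks of chromosome 4 and 7 of chromosome 13, and by 0 of 550 on chromosome 18, where the interval reaches to 0.694% and the highest value was 75.1. Chromosome 18 thus had the highest median enrichment and the lowest median −log10 p. The p of a peak depends on its reads as well as on its enrichment, and reads per peak are not in the list, so their part was not tested.

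Within bands of similar −log10 p, the enrichment of chromosome 18 was above that of the others in each band it reached. From 3 to 5 the median log2 fold enrichment was 3.54 against 3.48, and from 5 to 10 it was 3.62 against 3.58. From 10 to 20 it was 4.02 (154 peaks) against 3.78, and above 20, short of 400, it was 4.22 (56 peaks) against 3.96. In the same order of bands, chromosome 4 had 3.47, 3.60, 3.76 and 3.83, and chromosome 13 had 3.53, 3.55, 3.73 and 3.98. Chromosome 13 was thus also above the others from 3 to 5 and above 20, and chromosome 4 from 5 to 10. Enrichment and p come from the same read counts, so enrichment within a band also depends on reads per peak, which was not tested. No intervals were computed within bands. Bands with −log10 p from 5 to 10 held 38.7% of the peaks of chromosome 18 and 31.3% of those of the others.

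**Figure D3:**
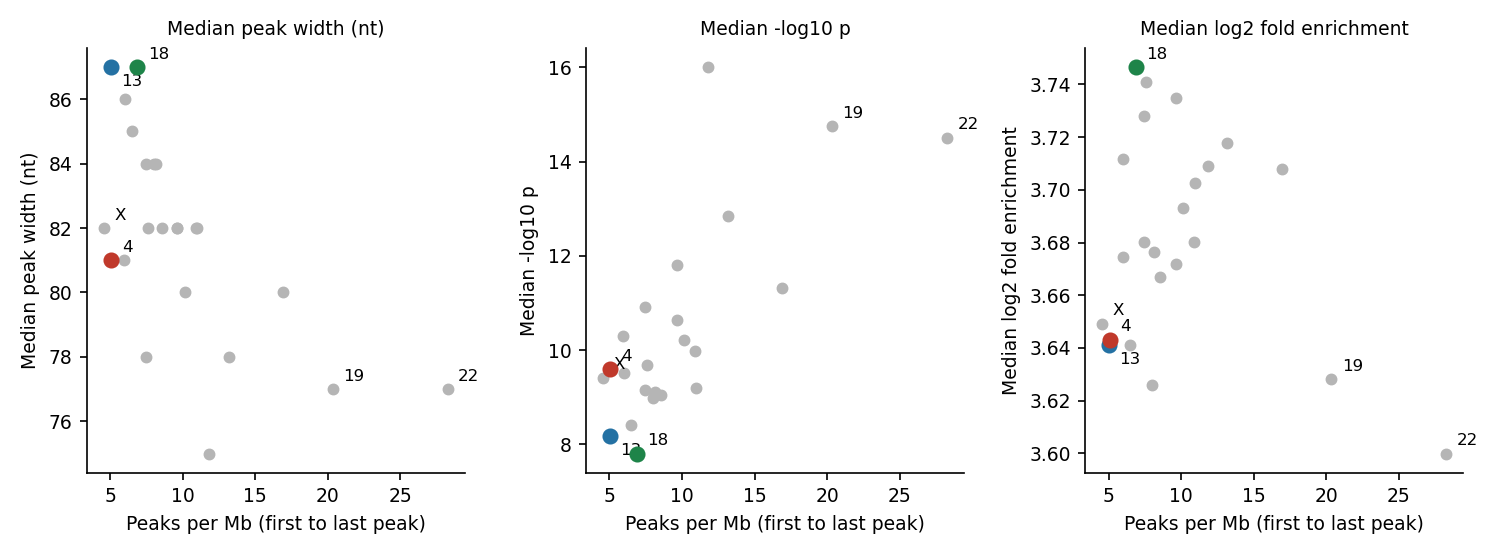
Each point is 1 of 23 chromosomes, with peaks per Mb on the horizontal axes and the median width (nt), median −log10 p and median log2 fold enrichment on the vertical axes, and chromosomes 4, 13 and 18 in colour. Chromosomes 13 and 18 share the highest width, 87 nt, and have the lowest −log10 p, 8.18 and 7.80, while chromosome 4 lies among the other chromosomes in all 3 panels.

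Over the 23 chromosomes, sparser ones tended to have wider spacing, wider peaks and a lower −log10 p. As a description over points that share the same libraries, the density in peaks per Mb had a Pearson's r of -0.621 with the median distance (Spearman's rho -0.798), of -0.629 with the median width (rho -0.610) and of 0.734 with the median −log10 p (rho 0.641). Without chromosomes 22 and 19, the 2 farthest from the median density, r was -0.685, -0.540 and 0.578 in that order. With the median log2 fold enrichment r was -0.287 and turned to 0.384 without these 2, so no relation held there. Chromosomes 4 and 13 had nearly the same density, with median distances of 144 and 241 nt. The intervals of their medians overlapped for width (78 to 84 nt and 83 to 91 nt) and for −log10 p (8.73 to 10.2 and 7.67 to 9.31).

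Width and −log10 p moved with how the peaks of a chromosome were grouped. Groups of at least 4 peaks held 47.2% of the peaks of chromosome 4 (interval 44.0 to 50.4%), 40.6% of chromosome 13 (36.3 to 45.1%) and 41.5% of chromosome 18 (37.4 to 45.6%), against 52.9% of the others (52.2 to 53.5%). The shares of chromosomes 13 and 18 were the lowest of the 23, next to 45.2% on chromosome 8 (41.9 to 48.5%), whose interval overlapped theirs. Single peaks had a median width of 94.5 nt on chromosome 4, 98 nt on chromosome 13 and 99 nt on chromosome 18, against 98 nt on the others, and their median −log10 p was 5.17, 5.19 and 5.60 against 5.64. Single peaks of the 3 chromosomes were therefore much like single peaks elsewhere in both.

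In groups of at least 4 peaks, chromosomes 13 and 18 had wider peaks than the others. The median width there was 81 nt on chromosome 13 (interval 75 to 84 nt, 193 peaks) and 80 nt on chromosome 18 (76 to 86 nt, 228 peaks), against 72 nt on the others (72 to 73 nt), while chromosome 4 had 69.5 nt (67 to 74 nt, 446 peaks). The median −log10 p was 11.4 on chromosome 18 (interval 10.3 to 12.3), below the 15.5 of the others (15.2 to 15.8). It was 14.2 on chromosome 4 (12.95 to 15.78), which overlapped the others, and 12.5 on chromosome 13 (10.8 to 15.2), whose interval ended at their lower bound. In groups of 2 to 3 peaks it was also lower on chromosome 18, at 6.39 (5.72 to 7.24) against 7.93 on the others (7.73 to 8.07), while chromosome 4, at 7.98, and chromosome 13, at 7.48, had intervals that overlapped the others. For groups of at least 4 peaks, the median log2 fold enrichment was 4.0 on chromosome 18 (interval 3.88 to 4.14). It was 3.84 on chromosome 13 and 3.77 on chromosome 4 (3.68 to 3.87), against 3.85 on the others (3.83 to 3.86). The stricter threshold was passed by 48.7% of peaks in these larger groups on chromosome 18, 36.8% on chromosome 13 and 34.5% on chromosome 4, which made 38.8% on the 3 together, against 40.0% on the others. For single peaks the share was 17.1% on chromosome 18, 12.6% on chromosome 13 and 10.5% on chromosome 4, against 11.0%.

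**Figure D4:**
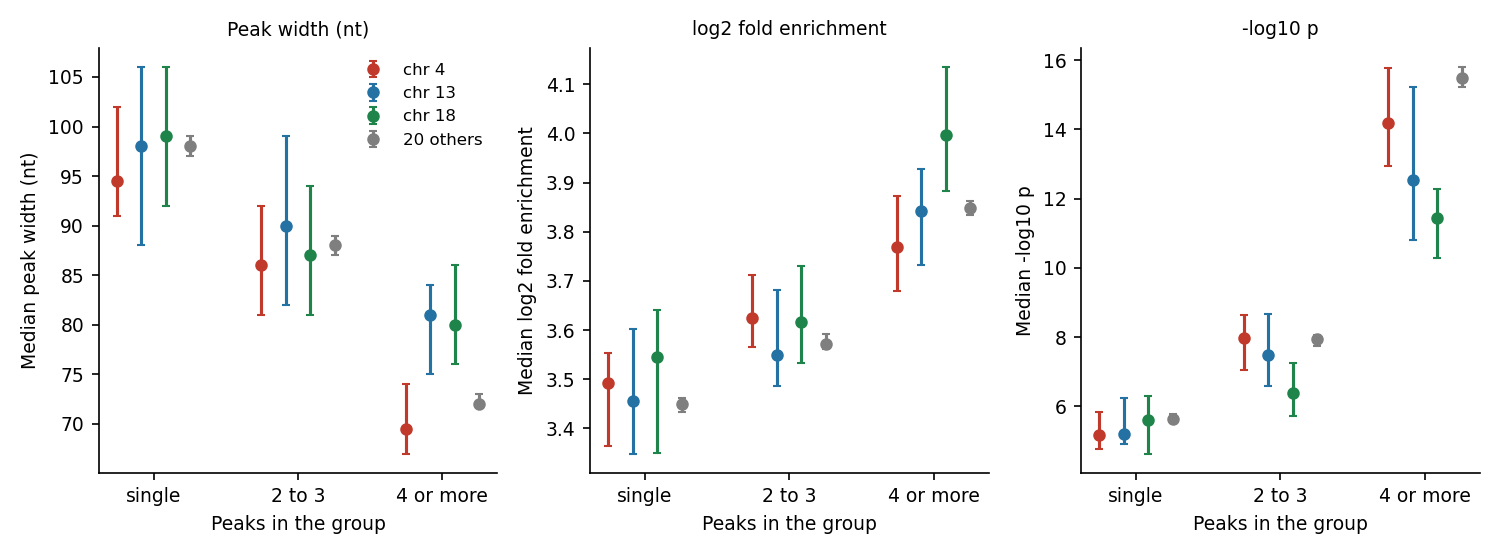
Points give the median peak width (nt), log2 fold enrichment and −log10 p of single peaks, of peaks in groups of 2 to 3 and of peaks in groups of 4 or more, and bars give 95% order-statistic intervals over peaks, for chromosomes 4, 13 and 18 and the 20 others. The sets overlap for single peaks, and in groups of 4 or more chromosome 18 has the highest enrichment, 4.0, with the lowest −log10 p, 11.4.

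The build of the larger groups was alike on both sides. Groups of at least 4 peaks numbered 75 on chromosome 4, 39 on chromosome 13 and 42 on chromosome 18. They had a median length of 640, 596 and 693 nt in that order, against 652.5 nt on the others, and their peaks covered a median of 74.1%, 75.3% and 67.9% of this length, against 72.1%. The strongest peak of a group lay between its outermost peaks in 101 of 156 groups (64.7%) of the 3 chromosomes and in 66.3% of groups of the others. Groups of at least 10 peaks numbered 8 of 399 on chromosome 4, 1 of 246 on chromosome 18 and 0 of 216 on chromosome 13, against 180 of 8924 on the others. The share of chromosome 4 was near that of the others. The largest groups of chromosome 13 had 8 peaks, the lowest maximum of the 23 chromosomes.

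The largest group of chromosome 4, at chr4:2837638-2838944 on the + strand, had 13 peaks with log2 fold enrichments from 3.36 to 5.26. From its 5′ end enrichment climbed over the first 4 peaks, at 3.36, 3.57, 4.82 and 5.26, was 4.94 at the fifth and 3.44 at the next, which followed a free stretch. It was 4.59 at the seventh peak and 3.54 at the last. The second group, of 12 peaks at chr4:20393328-20394493 on the + strand, had its highest value, 5.04, in a peak of 36 nt near its middle and its lowest, 3.24, 3.26 and 3.11, at the first peak and the last 2. The third, of 11 peaks at chr4:1825737-1826697 on the − strand, was enriched throughout. Its lowest value was 4.45 and its highest 5.70, its median was 5.26 (38.4-fold), its peaks covered 91.9% of its length, and all 11 passed the stricter threshold, against 6 of 13 and 5 of 12 in the first 2.

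On chromosome 13, both largest groups had 8 peaks and 3 of them at a −log10 p of 400. That at chr13:42231728-42232367 on the + strand had log2 fold enrichments from 3.32 to 4.71, and that at chr13:78602580-78603265 on the − strand had 3.28 to 4.14 with 99.6% of its length covered. Of the 7 peaks of chromosome 13 at a −log10 p of 400, 6 were in these 2 groups, with enrichments from 3.62 to 4.71. The remaining one, at chr13:33916121-33916293, had 4.71. The third group, of 7 peaks at chr13:97356455-97357421 on the + strand, had a higher median, 5.00, and no peak at a −log10 p of 400, its highest being 23.0. Its enrichment was 3.44 at the second peak and 5.56 at the last, which was also among the 3 strongest peaks of the chromosome.

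The 3 largest groups of chromosome 18 had medians above 4 throughout. The group of 11 peaks at chr18:79736772-79738007 on the + strand had a median of 4.35, with 5.10 at the eighth peak and 3.42 at the ninth, 20 nt beyond it. The 9 peaks at chr18:11902708-11903469 on the − strand were the most even, from 4.65 to 5.29, although their −log10 p ran only from 7.70 to 18.7. The 9 peaks at chr18:39498164-39499143 on the − strand had 4.07 at the 5′ end, 5.25 at the seventh peak and 4.30 at the last. All 9 peaks of each of the last 2 groups passed the stricter threshold.

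**Figure D5:**
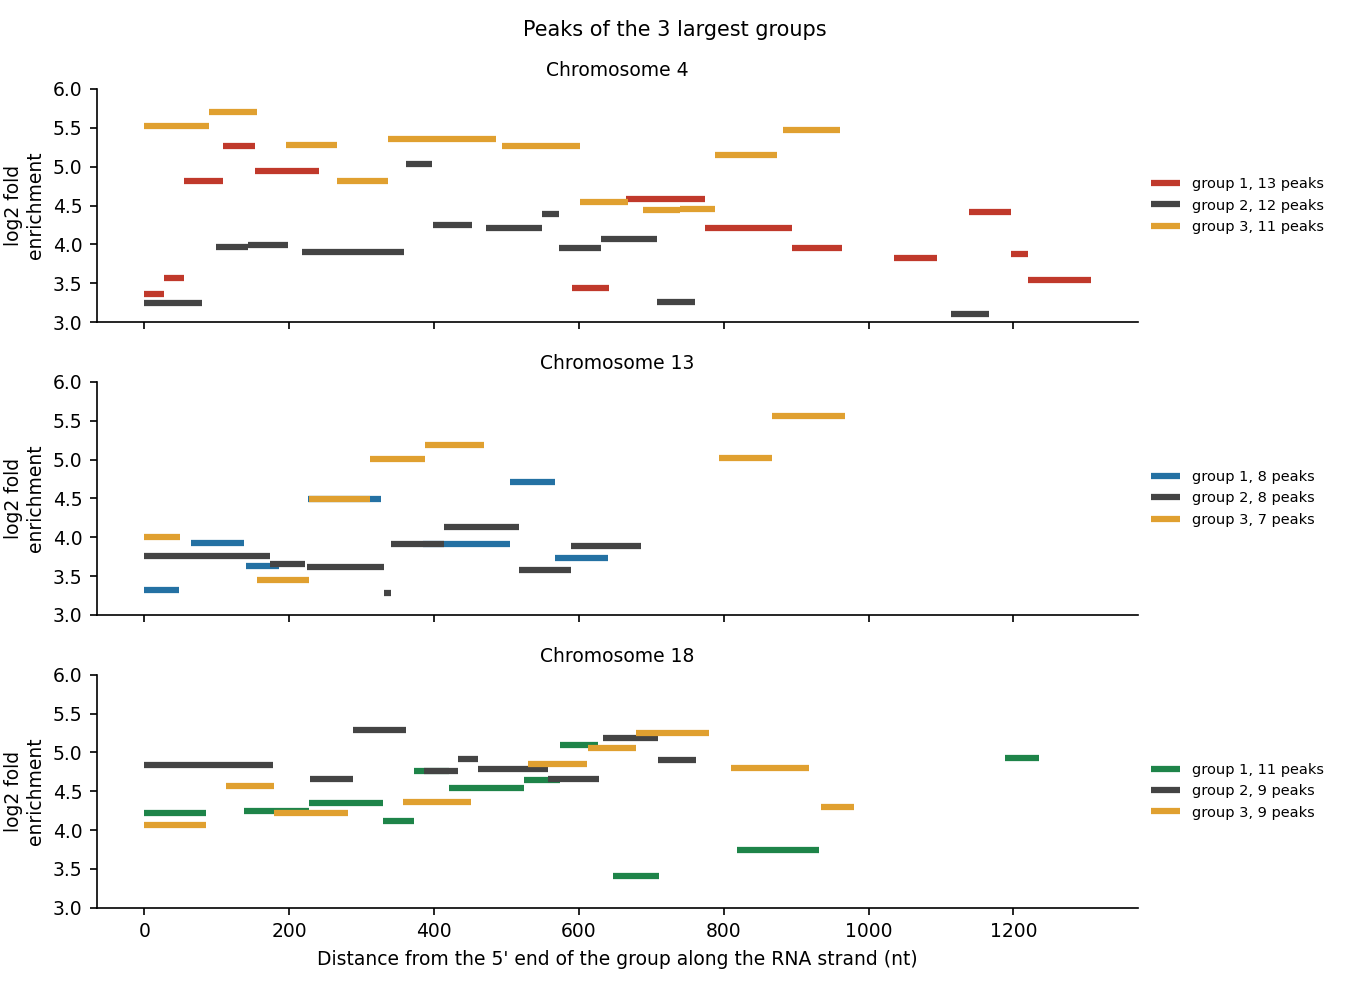
Each bar is 1 peak of the 3 largest groups of chromosomes 4, 13 and 18, placed by its distance (nt) from the 5′ end of the group along the RNA strand, with the authors' log2 fold enrichment on the vertical axis. The third group of chromosome 4 and the second of chromosome 18 stay at 4.45 or above, and each of the other 7 groups has at least 1 peak at 4.07 or below.

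The strongest single peaks were of like height on the 3 chromosomes, and all 9 described here lay inside groups. On chromosome 4 they were 6.18 at chr4:112917993-112918092 (72.7-fold, in a group of 8 peaks), 5.93 at chr4:30905629-30905752 and 5.84 at chr4:6999309-6999425, all on the + strand. Chromosome 13 had 5.92 at chr13:113446719-113446990 on the − strand, in the widest peak of the 3 chromosomes, then 5.82 at chr13:46742061-46742185 and 5.56 at chr13:97357321-97357421 on the + strand. Chromosome 18 had 5.82 at chr18:6304277-6304483, 5.76 at chr18:5397902-5398016 and 5.49 at chr18:21672939-21673023, all on the − strand. These 9 peaks had a −log10 p between 14.2 and 42.0, and their groups had from 3 to 11 peaks. None was among the members with a −log10 p of 400, whose enrichments ran from 3.36 to 4.71.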

How the data were processed

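The authors trimmed molecular identifiers and adapters (umi_tools, cutadapt), set aside reads of repeats and rRNA, aligned what was left with STAR to hg38 plus the minigene sequence, dropped PCR duplicates, and ran CLIPper to find peaks. Each peak was deposited by the authors with a −log10 p-value, computed from read counts by the Yates' chi-square test or, for low counts, Fisher's exact test. The authors also deposited a log2 fold enrichment, +Dox over No Dox, from read counts scaled to the reads of each library. Replicates were merged in the deposited list, with settings that are not given in the sources used here. The list holds only peaks past a threshold and no reads, so poorly covered RNAs may be missing from it.

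The list was read with Python 3.11.15 and pandas 2.3.3, ranks and intervals used scipy 1.17.1 and numpy 2.4.6, and plots matplotlib 3.10.9. Density was peaks divided by the Mb between the first and last peak, since chromosome lengths were not used here. Distances were the bases between same-strand neighbours, of which 0 pairs overlapped. Grouping, joining and medians were tested on simulated data. The members and lists were chosen with earlier results of these data known. The named positions are, on each chromosome, the 3 peaks with the highest enrichment and the 3 groups with the most peaks (ties by higher median enrichment). The fullest windows, empty stretches, lone peaks and peaks at the highest −log10 p were named after their values were seen. Gene lists, gene counts, position within genes and motifs, also planned, were not analysed here. Of the series' 12 libraries, 6 input libraries were not assigned to a group, and the 2 of the deletion line do not enter this list.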

Additional observations from a re-analysis of the deposited data

How the results depend on the processing

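Density, spacing and −log10 p of the 3 chromosomes kept their side of the 20 others under each alternative run, while the small difference in enrichment did not. The order among the 3 was less stable. At the stricter threshold 545 peaks in 295 groups were left, the density was 1.52 per Mb (2.63 on the others), the median distance 915 nt (215 nt, with 1649 nt on chromosome 4, 7230.5 nt on chromosome 13 and 389 nt on chromosome 18), the median width 87 nt (81 nt) and the median log2 fold enrichment 4.41 (4.43). On chromosome 18 that threshold put the median enrichment below the others, 4.41 against 4.43. The density of chromosome 18 was then 2.34 per Mb, near the 2.63 of the others, while chromosomes 4 and 13 had 1.32 and 1.26. With abutting peaks joined, the median distance was 1185 nt (673 nt, with 1271, 1510.5 and 809.5 nt in the same order) and the median width 100 nt (98 nt). On chromosome 18 the joined width was 98.5 nt, so most of its difference went with joining. Taken over groups, the median log2 fold enrichment was 3.60 against 3.57, which turned the order, also on chromosome 4 (3.60) and chromosome 13 (3.59), and the median −log10 p was 6.89 against 7.62 (6.86, 7.08 and 6.82 on chromosomes 4, 13 and 18, which put chromosome 4 below chromosome 13). Joining and the stricter threshold each put the median distance of chromosome 4 above that of chromosome 18, and taking both strands together did not. With the fold alone, 31.0% passed against 31.5%. Per window of 1 Mb that holds a peak, an alternative chosen after seeing the data, there were 10.1 peaks against 13.4. The cause of each change was not tested beyond what the alternative itself sets.

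No paired analysis was possible because the list holds 1 value per peak after replicates were merged, so single replicates could not be left out either. Density by chromosome length, genes with peaks and motifs were not run, since no human genome or annotation was used. The unknown depth limits every value.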
